A study of Mus musculus with 4 samples.

Results

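In all, 10 genes of the Polycomb repressive complexes were followed in mouse embryos at the 2-cell stage. They were chosen by name from the 53715 rows of a gene count table, and all 10 were found: Ezh1, Ezh2, Eed, Suz12, Jarid2 and Aebp2 of Polycomb repressive complex 2 (PRC2), and Ring1, Rnf2, Bmi1 and Pcgf6 of Polycomb repressive complex 1 (PRC1). Zygotes of a C57BL/DBA2 background received either siNC, a control small interfering RNA (siRNA), or an siRNA against SPENH0335, each injected at 20 μM, and were cultured in KSOM medium. By the series' title, SPENH0335 is presumably an enhancer-derived RNA. Poly(A) RNA of whole embryos was sequenced in 2 control and 2 knockdown libraries. How many embryos made up a library, and whether the replicates are separate collections, is unstated in the labels, so p-values cover no more than the library-to-library spread, which may be technical.

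PRC2 and PRC1 keep developmental genes silent. PRC2 methylates histone H3 to H3K27me3 through the catalytic subunit EZH2 or EZH1, which is active only when bound to EED and SUZ12; JARID2 and AEBP2 are accessory subunits that help to place and stimulate it. PRC1 puts monoubiquitin on histone H2A through the RING finger ligases RNF2 (RING1B) or RING1 (RING1A), each paired with 1 PCGF protein: BMI1 (PCGF4) or PCGF2 in canonical complexes that also read H3K27me3 through CBX proteins, and PCGF1, PCGF3, PCGF5 or PCGF6 in variant complexes. In the mouse, oocytes hand both activities to the embryo. Maternal EED is needed for the imprints that rest on H3K27me3, and embryos from oocytes without RING1 and RNF2 stop at the 2-cell stage.

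Libraries held 78865491 to 99011109 counts, and SPENH0335 has no row in the table, so how far it was knocked down could not be read. The labelled stage was checked against marker genes. Genes of the 2-cell stage (7 genes) summed to 982 and 1034 CPM (counts scaled to a common library total) in control and 1215 and 1243 CPM in knockdown. Of the 7, 4 were higher and 1, Tdpoz4, lower in knockdown without overlap, beside 15.6% and 17.1% of all genes tested. Usp17lc and Obox7 overlapped between the groups. At an unadjusted p under 0.05 by edgeR 3 were higher, beside 1.56% of all genes tested. All 3 were Zscan4 genes (Zscan4c, Zscan4d and Zscan4f), and how reads shared by similar genes were assigned is not stated. The 6 maternal oocyte genes summed to 5878 and 5952 CPM in control and 5424 and 5574 CPM in knockdown. Of the 6, 4 were lower without overlap, beside 17.1% of all genes tested, and 1 at an unadjusted p under 0.05 by edgeR, beside 2.29%. Both stage sums thus separated the groups, with no gene passing after adjustment by edgeR. Markers of cumulus and granulosa cells (7 genes) summed to 39.2 to 57.9 CPM, nearly all of it Cyp19a1, and without Cyp19a1 to 4.38 and 4.81 CPM in control and 2.39 and 2.16 CPM in knockdown. Those of blood, oviduct and stroma (7 genes) summed to 34.7 and 50.6 CPM in control and 32.1 and 14.7 CPM in knockdown, so this sum also separated the groups. Of the 6 tested, 4 were lower and 1 higher in knockdown without overlap, beside 17.1% and 15.6% of all genes tested. The 4 include Ptprc, which passed the low-count filter only through the control libraries. Among these 7 genes the globin Hbb-bs was at 0 in every library, but the globin Hba-a1 was at 10.4 to 27.1 CPM. Lyz2 reached 19.4 CPM in control replicate 2. The blastocyst factors Cdx2, Nanog and Gata6 summed to 4.22 to 9.27 CPM. In RNA of whole embryos, fewer cells of a type and less RNA per cell cannot be told apart.

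Of the members, 9 were strongly transcribed or stored in these embryos, and Ring1 was close to absent. To compare genes, CPM were divided by the length of each gene's annotated exons in kilobases. Over the 4 libraries Bmi1 stood highest, at 298 ± 12.8 CPM per kilobase (mean ± SD, n = 4), above 99.5% of tested genes. Suz12 followed at 157 ± 11.5 CPM per kilobase. Rnf2, at 83.0 ± 7.32, Eed, at 67.7 ± 10.4, Ezh2, at 60.1 ± 13.1, and Pcgf6, at 56.7 ± 4.64 CPM per kilobase, formed a middle group. In it the range of each gene over the libraries overlapped that of the next. Within single libraries, Rnf2 was above Eed and Eed above Ezh2 in all 4, and Ezh2 above Pcgf6 in 1. Aebp2 was at 23.2 ± 1.41, Ezh1 at 20.7 ± 1.28 and Jarid2 at 14.6 ± 2.44 CPM per kilobase, with ranges that did not overlap their neighbours in this order. Jarid2, the lowest of the 9, still lay above 86.8% of tested genes. The exon length takes all annotated isoforms together, and which of them these embryos use is not in a gene table.

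**Figure D1:**
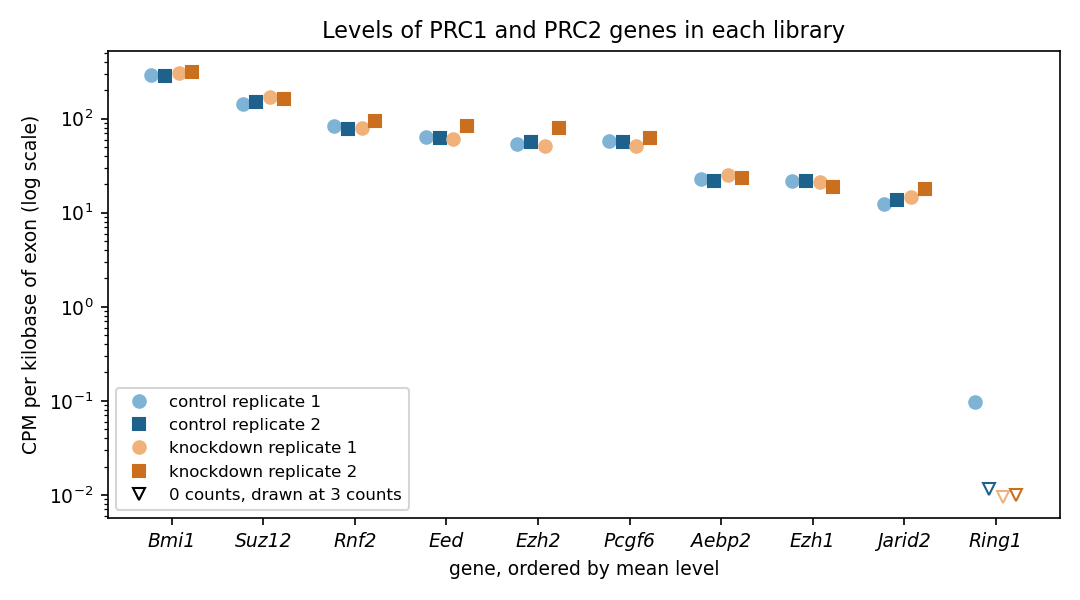
Level of each of the 10 genes (CPM per kilobase of exon, log scale) in each library; circles are replicate 1, squares replicate 2, blue control and orange knockdown, and open triangles stand for 0 counts drawn at 3 counts. Bmi1 lies highest, between 285 and 313 CPM per kilobase, and Ring1 is at 0.0974 in control replicate 1 and at 0 counts in the other libraries.

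Within families of related subunits, 1 gene usually carried most of the level. The RING1 ligases were the extreme case: Ring1 (chromosome 17, 34020792 to 34024680, GRCm38) had 28 counts in control replicate 1 and 0 in the other 3 libraries, while Rnf2 (chromosome 1, 151458004 to 151500955) had 25482 to 36200. Per kilobase, Rnf2 stood 849-fold above Ring1 in control replicate 1. Where Ring1 had 0 counts, Rnf2 was at least 6675-fold higher in control replicate 2, at least 8260-fold in knockdown replicate 1 and at least 9482-fold in knockdown replicate 2, against a floor of 3 counts per library that covers counting error only. Ring1 did not pass the filter on low counts and was not tested. Among the 6 PCGF genes, Bmi1 held 54.5 to 60.2% of the summed level per kilobase, Pcgf1 28.0 to 33.2% and Pcgf6 10.1 to 11.3%. Pcgf2, the other PCGF of canonical PRC1, had 14 to 77 counts and at most 0.0451% of the family's level.

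The 250 bases upstream of the RefSeq start are shown for these 2 pairs of paralogues, because each sets an abundant gene against a related gene with few or no counts (RefSeq, GRCm38.p6, written 5′ to 3′ on the gene's strand; all 10 members matched an entry).
Rnf2, chr1:151500992-151501241, minus strand: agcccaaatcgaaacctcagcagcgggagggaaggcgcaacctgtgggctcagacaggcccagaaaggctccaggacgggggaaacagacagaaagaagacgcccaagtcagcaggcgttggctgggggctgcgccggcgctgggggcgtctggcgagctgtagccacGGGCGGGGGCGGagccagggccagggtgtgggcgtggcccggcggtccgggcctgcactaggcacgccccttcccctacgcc
Ring1, chr17:34024681-34024930, minus strand: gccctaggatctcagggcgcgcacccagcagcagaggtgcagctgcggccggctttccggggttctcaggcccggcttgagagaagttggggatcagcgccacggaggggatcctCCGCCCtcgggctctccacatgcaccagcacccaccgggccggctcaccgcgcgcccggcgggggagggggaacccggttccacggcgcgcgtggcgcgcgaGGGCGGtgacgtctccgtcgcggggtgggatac
Bmi1, chr2:18676768-18677017, plus strand: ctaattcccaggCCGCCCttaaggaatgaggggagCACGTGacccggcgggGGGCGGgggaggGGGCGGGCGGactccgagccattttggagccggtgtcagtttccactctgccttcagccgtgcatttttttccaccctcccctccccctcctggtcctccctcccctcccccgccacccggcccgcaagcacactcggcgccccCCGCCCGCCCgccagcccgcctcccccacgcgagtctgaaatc
Pcgf2, chr11:97699649-97699898, minus strand: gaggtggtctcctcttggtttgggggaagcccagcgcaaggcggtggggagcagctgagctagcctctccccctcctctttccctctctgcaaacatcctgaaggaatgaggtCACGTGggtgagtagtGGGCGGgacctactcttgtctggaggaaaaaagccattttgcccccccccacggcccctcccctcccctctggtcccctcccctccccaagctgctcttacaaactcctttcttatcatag
Capitals mark the GC box GGGCGG and the E-box CACGTG on either strand; CCAAT and the E2F site GCGGGAA were also searched on both strands and are not in these 4 windows. The GC box occurred 2 times upstream of Rnf2 and 2 times upstream of Ring1, 6 times upstream of Bmi1, where matches share bases, and 1 time upstream of Pcgf2. Of 32851 windows of this length upstream of RefSeq starts, 32.7% hold it. The E-box stood 1 time each upstream of Bmi1 and Pcgf2, against 6.02% of all windows, while CCAAT is in 33.8% and GCGGGAA in 3.82% of them. The windows held 20 CpG for Rnf2, 30 for Ring1, 21 for Bmi1 and 5 for Pcgf2, against a median of 6. The RefSeq start of Pcgf2 lies inside the GENCODE gene. Its window covers 599 to 848 bases within that gene, so its motif and CpG counts are not comparable with those of the other 3. Of these 3, Ring1, with the fewest counts, had the most CpG.

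The EZH pair was less one-sided. Ezh2 (chromosome 6, 47530139 to 47595341) stood 2.41 to 4.21-fold above Ezh1 (chromosome 11, 101191115 to 101226463) per kilobase and held 70.6 to 80.8% of their joint level. Of the CBX genes of canonical PRC1, whose proteins read H3K27me3, Cbx2 held 78.3 to 81.4% and Cbx8 5.72 to 11.5%, and Cbx6 was at or below 0.442%. Phc2 held 62.9 to 69.4% of the PHC genes, which polymerise canonical PRC1, and Phc3 at most 3.08%. The PRC2 histone-binding subunit Rbbp7 was 105 to 186-fold above its paralogue Rbbp4 per kilobase, a ratio that is uncertain, since the assignment of reads shared by similar genes is not stated and was not tested. Mtf2 led the Polycomb-like PRC2 subunits with 64.7 to 67.6%, ahead of Phf1 and Phf19.

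**Figure D2:**
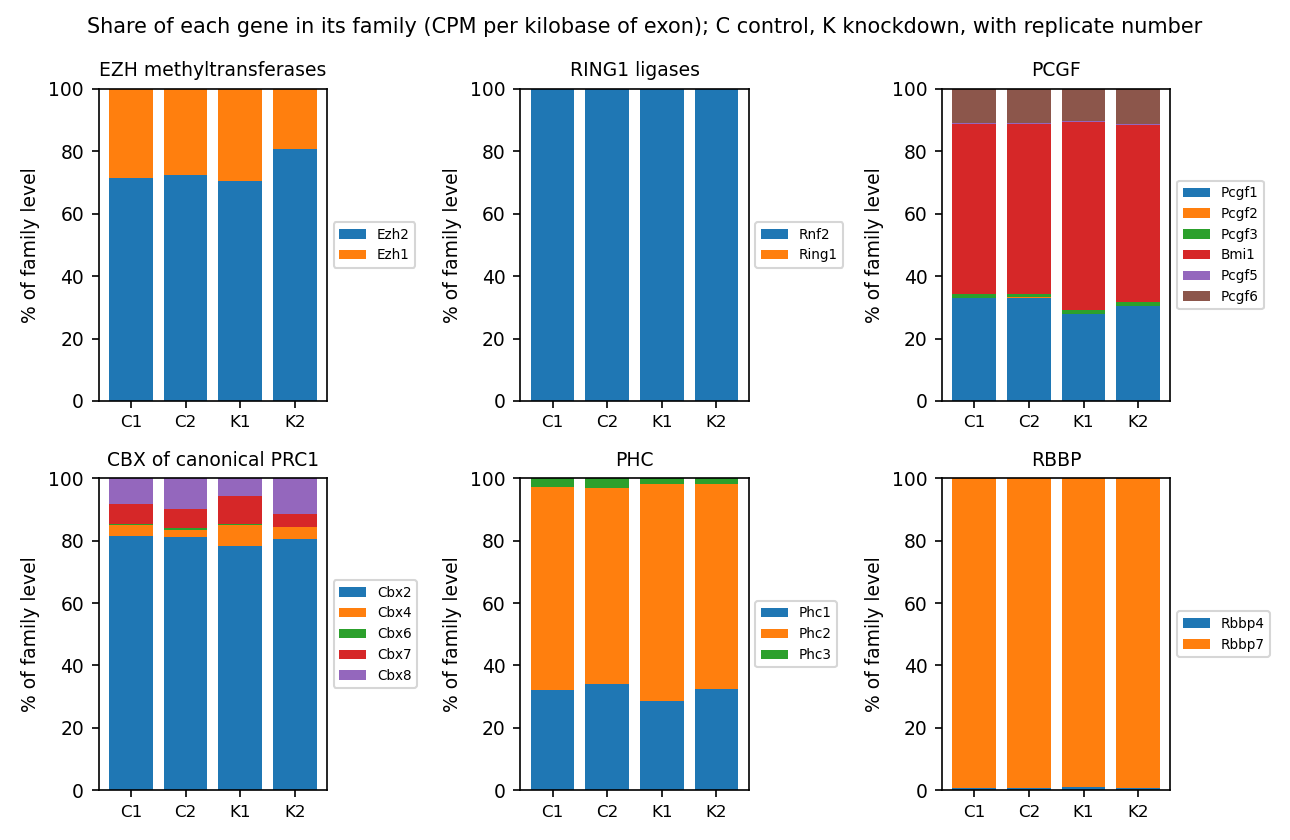
Stacked bars give each gene's share (%) of the summed CPM per kilobase of its family in the 4 libraries (C control, K knockdown, with replicate number). Rnf2, Rbbp7 and Cbx2 fill most of their bars in every library, and the Ezh2 share is largest, 80.8%, in knockdown replicate 2.

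The design asks what changes when SPENH0335 is knocked down. No Polycomb member passed the test (edgeR quasi-likelihood F-test, Benjamini-Hochberg adjusted p under 0.05 over 25565 genes), in a comparison that called 0% of all genes. Over all genes, DESeq2 called 20 higher and 33 lower, none of them a member. The smallest adjusted p among the 9 tested members was 0.9999. At an unadjusted p under 0.05 there were 0 members, against 3.85% of all genes (1.56% higher and 2.29% lower); DESeq2 and limma-voom called 0 members after adjustment, with 1 member each at an unadjusted p under 0.05 (Jarid2 by DESeq2, beside 4.01% of all genes in that fit, and Suz12 by limma-voom, beside 3.13%). Of the 9, 7 had a log2 fold change above 0 and 2 below, with a median of 0.12, beside a median of -0.0025 over all genes tested and 0.03 over the 8185 genes averaging 10 CPM or more. For each of the 9 the 95% interval lay within 2-fold in either direction, as it did for 7184 of those 8185 genes.

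**Figure D3:**
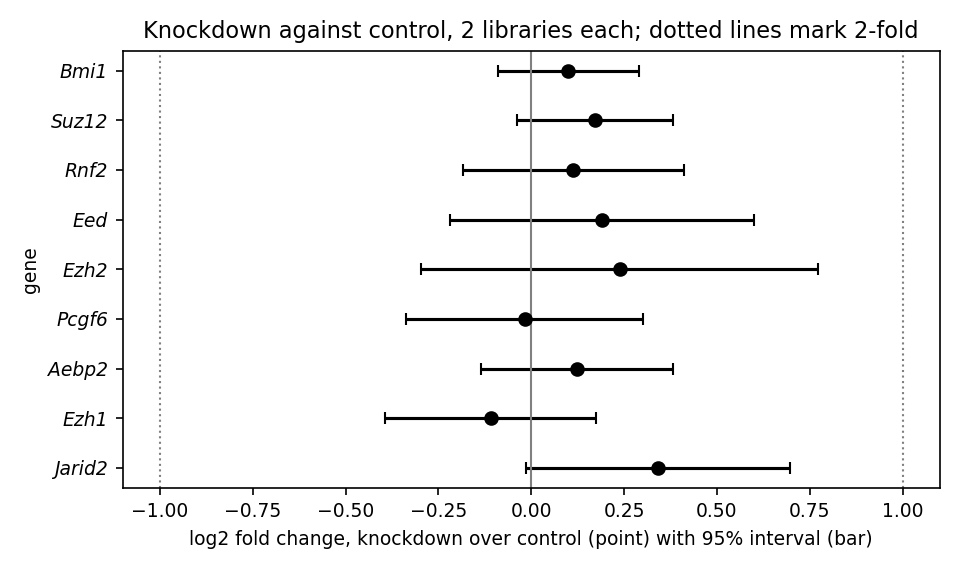
Points are log2 fold changes of the 9 tested members, knockdown over control, and bars their 95% intervals from the edgeR fit (2 libraries a group); dotted lines mark 2-fold. Each interval includes 0, and the widest, for Ezh2, runs from -0.30 to 0.77.

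Among the PRC2 core genes, Ezh2, the main H3K27 methyltransferase, was at 362 and 374 CPM in the control libraries and at 338 and 530 CPM in knockdown replicates 1 and 2. Knockdown replicate 1 was thus the lowest and replicate 2 the highest of the 4, and the groups overlapped. The log2 fold change was 0.24 (SE 0.21, 95% interval -0.30 to 0.77, adjusted p 0.9999). Eed (chromosome 7, 89954654 to 89980983), whose protein binds H3K27me3 and switches the enzyme on, was at 246 and 237 CPM in the controls and 234 and 318 CPM after knockdown. It followed the order of Ezh2 in the knockdown libraries, with a log2 fold change of 0.19 (SE 0.16). Suz12 (chromosome 11, 79993106 to 80034123), the scaffold of PRC2, was at 709 and 751 CPM in the controls and 836 and 809 CPM after knockdown. Both knockdown libraries lay above both controls, and the log2 fold change was 0.17 (SE 0.08, 95% interval -0.04 to 0.38, adjusted p 0.9999). Ezh1, the weaker methyltransferase, was at 161 and 160 CPM in the controls and 157 and 140 CPM after knockdown, a log2 difference of -0.11 (SE 0.11). It was the only tested member whose knockdown libraries both lay below the controls.

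Summed over Ezh2, Eed and Suz12, the core stood at 1318 and 1363 CPM in control and 1408 and 1658 CPM in knockdown (exact permutation test of the log2 sum, two-sided, p = 0.333, the smallest that 6 assignments of 2 against 2 libraries allow). The ratio of Ezh2 to Ezh1 per kilobase was 2.51 and 2.61 in control and 2.41 and 4.21 in knockdown (exact permutation p = 1). The groups overlapped in this ratio. Without knockdown replicate 2 its difference turned from 0.31 to -0.09 on the log2 scale.

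Of the accessory subunits, Jarid2 (chromosome 13, 44729474 to 44921643), a catalytically inactive Jumonji protein that recruits PRC2, had the smallest p of the 9 members. It was at 119 and 132 CPM in the controls and 143 and 174 CPM after knockdown. Knockdown lay above control in both libraries, with a log2 fold change of 0.34 (SE 0.14, 95% interval -0.01 to 0.70, unadjusted p 0.0572 and adjusted p 0.9999 by edgeR). Aebp2 (chromosome 6, 140622663 to 140678472), a zinc finger subunit, was at 223 and 215 CPM in the controls and 247 and 230 CPM after knockdown, a log2 difference of 0.12 (SE 0.10). Its groups did not overlap, but the lower knockdown library lay nearer to the controls than to the other knockdown library.

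For PRC1, Rnf2, the ligase subunit, was at 341 and 317 CPM in the controls and 327 and 385 CPM after knockdown, with a log2 fold change of 0.11 (SE 0.12). The groups overlapped. Bmi1 (chromosome 2, 18677018 to 18686629), its partner in canonical PRC1, was at 1149 and 1134 CPM in the controls and 1201 and 1246 CPM after knockdown. Both knockdown libraries were higher, by a log2 fold change of 0.10 (SE 0.08, 95% interval -0.09 to 0.29), so that a change of Bmi1 above 1.22-fold lay outside its interval. Pcgf6 (chromosome 19, 47033617 to 47050906), which defines the variant complex that silences germline genes, was at 290 and 284 CPM in the controls and 255 and 312 CPM after knockdown. The knockdown libraries enclosed the controls, and the log2 fold change was -0.02 (SE 0.13). The ratio of Pcgf6 to Bmi1 per kilobase was 0.199 and 0.198 in control and 0.168 and 0.198 in knockdown (exact permutation p = 0.667).

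Control and knockdown libraries did not overlap for 5 of the 9 tested members: 4 were higher in knockdown (Suz12, Jarid2, Aebp2 and Bmi1), where 15.6% of all genes tested were, and 1 was lower (Ezh1), where 17.1% were. The sums of the 2-cell genes, the maternal genes and the blood, oviduct and stroma markers given above were apart between the groups too. So was that of the cumulus and granulosa markers without Cyp19a1. The part of these sums in the members' differences was not tested. Among genes averaging 10 CPM or more, knockdown was higher without overlap for 1563 of 8185 genes. The sum of all 10 members was 3601 and 3604 CPM in control and 3738 and 4145 CPM in knockdown (exact permutation p = 0.333, the smallest possible here). Knockdown replicate 2 lay further above the controls than replicate 1 did.

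The knockdown libraries differed from each other more than the controls did. For 8 of the 9 members the log2 difference between the knockdown libraries was wider than that between the controls, which also held for 70.5% of genes averaging 10 CPM or more. From knockdown replicate 1 to replicate 2 the log2 difference was 0.65 for Ezh2, 0.44 for Eed, 0.29 for Pcgf6, 0.28 for Jarid2 and 0.24 for Rnf2, and no larger than 0.16 in size for Ezh1, Aebp2, Suz12 and Bmi1. Between the control libraries it was at most 0.15 in size for any tested member. Knockdown replicate 2 was the highest of the 4 libraries for 6 of the 9, against 42.6% of genes at this level. The markers of blood, oviduct and stroma had their lowest sum, 14.7 CPM, in this library. Those of cumulus and granulosa cells had their highest, 57.9 CPM, which rested on Cyp19a1 at 55.7 CPM; the other 6 had their lowest there, 2.16 CPM. The part of these markers in the differences was not tested. Without knockdown replicate 1, 5 members had an unadjusted p under 0.05 (Ezh2, Eed, Jarid2, Rnf2 and Bmi1), as did 13.1% of all genes there, and the smallest adjusted p of edgeR was 0.140. Without knockdown replicate 2, 1 member did (Suz12), beside 8.02% of all genes, and 4 of 10 tested members lay above 0 in place of 7 of 9. Without control replicate 1 or 2, 0 members had an unadjusted p under 0.05 by edgeR, beside 1.89% and 2% of all genes.

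**Figure D4:**
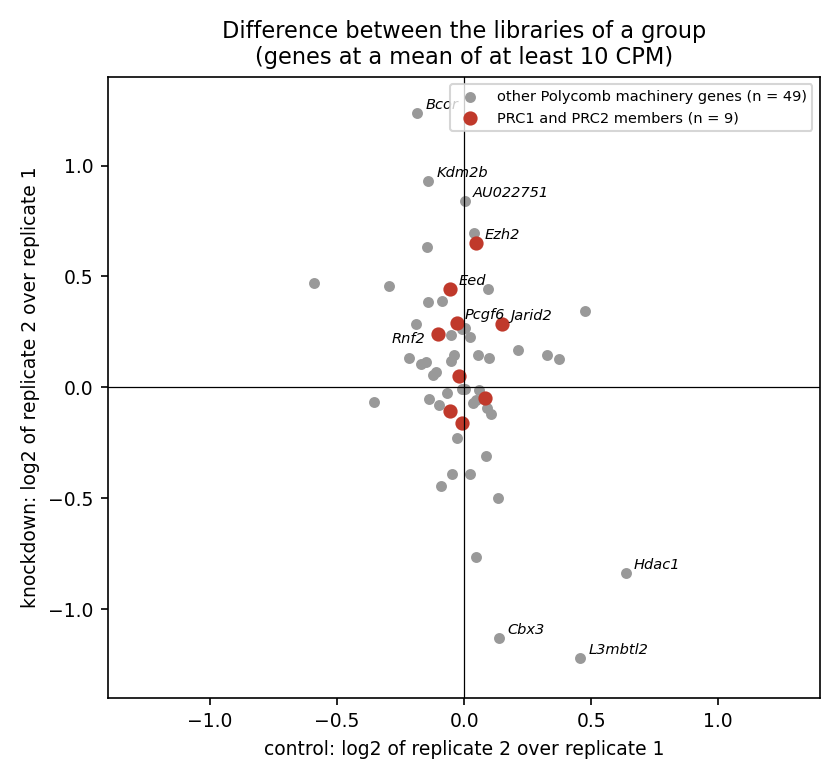
Each point is a gene averaging 10 CPM or more; the axes give the log2 of replicate 2 over replicate 1 in control (x) and in knockdown (y), with the 9 members in red and 49 other Polycomb genes in grey. Points spread further along y than x; Ezh2 is at 0.05 on x and 0.65 on y.

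The rest of the Polycomb machinery was described by lists of further subunits, erasers and recruiters (60 genes, all tested). None passed the edgeR test after adjustment, and 0 had an unadjusted p under 0.05, beside 3.85% of all genes tested. Over the 60, 33 had a log2 fold change above 0 and 27 below, with a median of 0.02. Beside this, 49.7% of all genes tested and 55.4% of genes averaging 10 CPM or more were above 0. Other PRC2 subunits and modulators had 5 of 8 above 0 (median 0.04). Rbbp7 was at 1837 ± 34.1 CPM in the controls and 1957 ± 656 CPM after knockdown (mean ± SD, n = 2), and Rbbp4 at 32.1 ± 1.65 and 40.9 ± 2.45 CPM. Mtf2, which brings PRC2 to CpG islands, was at 117 ± 5.65 and 100 ± 3.99 CPM (log2 change -0.22, SE 0.12, 95% interval -0.52 to 0.07). Like Ezh2 and Eed, Rbbp7 was higher in knockdown replicate 2 than in replicate 1, with a log2 difference of 0.70. AU022751, the mouse gene of the EZH inhibitory protein EZHIP, named here after its values were seen, had a log2 difference of 0.84 between the knockdown libraries and 0.0028 between the controls. Over the 8 genes of this list, 4 were higher and 4 lower in knockdown replicate 2 than in replicate 1, with a median log2 difference of -0.01 and the lowest, -1.07, for Epop.

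Canonical PRC1 subunits had 4 of 11 genes above 0 (median -0.06). Scml2, an X-linked Polycomb protein of the germline, had the highest level per kilobase of this list and was at 423 ± 18.5 CPM in the controls and 405 ± 87.3 CPM after knockdown. Phc3 had the smallest p of the list, at 7.57 ± 0.0153 and 4.85 ± 0.147 CPM (log2 change -0.64, SE 0.28, 95% interval -1.34 to 0.06). Cbx2 was at 32.9 ± 2.42 and 31.6 ± 1.79 CPM. Variant PRC1 subunits had 13 of 27 above 0 (median -0.01). Skp1a, an adaptor shared with SCF ubiquitin ligases, was at 967 ± 25.3 and 919 ± 65.9 CPM. Rybp, which stimulates the ligase in variant PRC1, was at 40.2 ± 1.30 and 50.6 ± 0.580 CPM (log2 change 0.33, SE 0.14, 95% interval -0.03 to 0.69). Kdm2b, which ties PCGF1 complexes to unmethylated CpG islands, was at 110 ± 7.71 and 119 ± 52.6 CPM, with 82.2 CPM in knockdown replicate 1 and 157 CPM in replicate 2. The scaffold Mga of PCGF6 complexes was at 154 ± 6.59 and 142 ± 21.6 CPM, and E2f6, which binds DNA in the same complexes, at 2.49 and 5.58 CPM in the controls and 5.13 and 1.01 CPM after knockdown.

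Genes that oppose Polycomb marks had 6 of 8 above 0 (median 0.15). Kdm6a, the X-linked demethylase of H3K27me3 also called UTX, was at 404 and 404 CPM in the controls and 465 and 462 CPM after knockdown. These groups did not overlap, and the log2 fold change was 0.20 (SE 0.09, 95% interval -0.02 to 0.41, unadjusted p 0.0658 and adjusted p 0.9999 by edgeR). Its relative Kdm6b was at 258 ± 11.3 and 278 ± 12.9 CPM. Bap1, which removes ubiquitin from histone H2A, was at 42.6 and 34.7 CPM in the controls and 30.5 and 41.8 CPM after knockdown. Of the other Polycomb group genes and recruiters, 5 of 6 were above 0 (median 0.18). Sfmbt1, a reader of methylated histones, was at 820 ± 20.8 and 846 ± 48.3 CPM, and Yy1, a zinc finger factor, at 27.7 ± 0.657 and 35.7 ± 13.1 CPM.

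**Figure D5:**
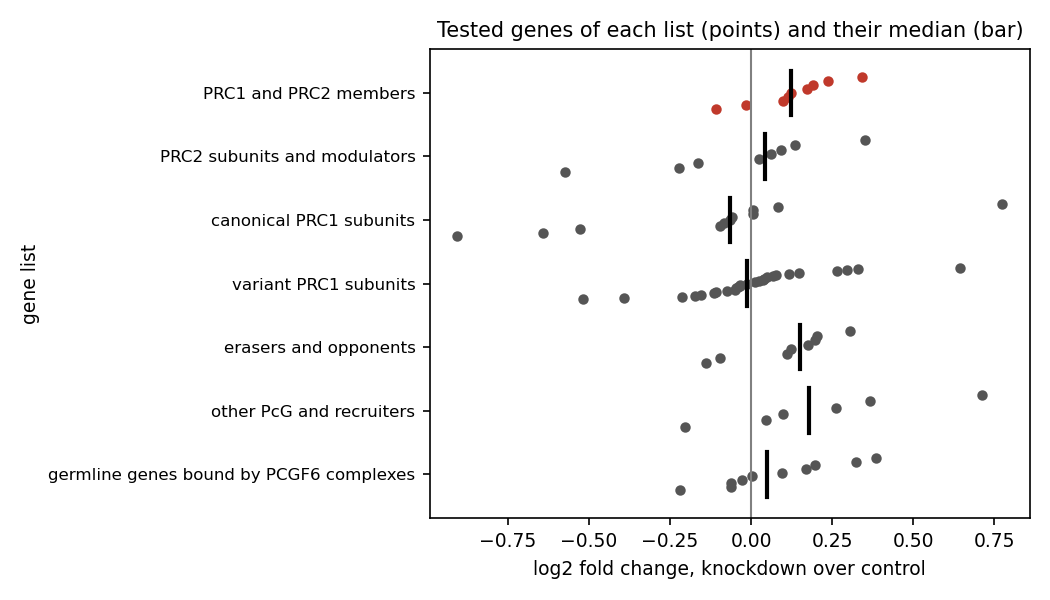
Points are log2 fold changes of tested genes, knockdown over control, and black bars the medians. Drawn are the members, the lists of other Polycomb machinery and the germline genes bound by PCGF6 complexes. Developmental and imprinted genes are not drawn. The members have a median of 0.12 and the variant PRC1 subunits one of -0.01.

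Genes that Polycomb complexes are known to silence were read beside the machinery, with no measure of chromatin in these data. Of 18 developmental regulators, such as Hox, Pax and Gata genes, 16 passed the low-count filter, and none passed after adjustment. Among the 16, 6 had a log2 fold change above 0 (median -0.16). The 6 include Olig2, whose direction was fixed by how it passed the filter, as given below. Their levels were low, with 4.18 CPM per kilobase for Gata4, the highest, at 16.3 ± 3.11 CPM in the controls and 16.3 ± 1.09 CPM after knockdown. Olig2, a neural factor, had no counts in either control and 58 and 26 counts after knockdown. With the control group set to a floor of 3 counts over the group, it was 24.8-fold higher, a value that covers counting error only. Gaps of this kind also stood within a group, as for Hoxa13 of the same list, with 127 and 0 counts in the controls. Olig2 passed the low-count filter only through the knockdown libraries, so no p is given for it. The 5 genes imprinted through maternal H3K27me3 were at low levels. Of the 4 tested, 1 had a log2 fold change above 0 and 3 below (median -0.39). Jade1 was at 14.6 and 15.4 CPM in the controls and 12.5 and 7.19 CPM after knockdown (log2 fold change -0.61, 95% interval -1.42 to 0.20). Slc38a4, an amino acid transporter and the 1 above 0, was at 1.27 ± 0.541 and 3.12 ± 0.823 CPM (log2 fold change 1.29, 95% interval -0.02 to 2.61). Of the 10 germline genes that PCGF6 complexes silence in embryonic stem cells, 6 were above 0 (median 0.05). Mael, of the piRNA pathway, was at 46.5 ± 0.422 and 58.2 ± 2.50 CPM (log2 change 0.32, SE 0.14, adjusted p 0.9999 by edgeR), and Sycp3, of the meiotic chromosome axis, at 59.3 ± 9.82 and 59.4 ± 21.5 CPM.

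Annotated genes overlap 5 of the members. Exons on the other strand overlap those of Ezh2, Eed, Suz12 and Rnf2 by 158 to 261 bases, and the genes concerned had at most 4.15% of the member's counts, the largest being Trmt1l at Rnf2. The labels do not state a strand setting for the counting, so reads from such shared bases cannot be told apart.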

How the data were processed

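Poly(A) RNA of whole 2-cell embryos was measured in 2 control and 2 knockdown libraries. The authors deposited 1 table of raw counts, whole numbers per gene and library. Build mm10 and, without their roles, HISAT2 2.1.0, Picard 2.18.2, Trim Galore 0.6.5 and CASAVA 1.8 stand in the submitters' processing notes; counting tool, annotation release, strand setting and duplicate handling were not given in the sources used here. By Ensembl ID without version, 53620 of 53715 rows matched GENCODE M21 (GRCm38), which gave symbols, coordinates and exon lengths.

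From the counts, edgeR 4.0.16 (R 4.3.3) kept 25565 genes with filterByExpr (minimum 10 counts), scaled libraries by TMM and compared groups with the quasi-likelihood F-test, two-sided, adjusted over all genes tested at a threshold of 0.05, with group as the only term. Intervals are 95%. CPM use the TMM-scaled totals of these genes. The members and lists were chosen with earlier results of these data known. Genes named were the 10 members, in each list the genes with the smallest p, with the highest level per kilobase and with p under 0.05, a panel of 11, and paralogues in the family description. AU022751, Epop, Hoxa13, Cyp19a1 and other markers named singly, and the genes overlapping members were added after their values were seen. Alternatives were DESeq2 1.42.0, limma-voom (limma 3.58.1), no scaling, no low-count filter, a replicate block and leaving out each library. The cDNA was pre-amplified with no molecular identifiers named in the labels, so floors cover counting error only. No 2 libraries were alike enough to be 1 library deposited again: the chi-square per degree of freedom of the closest pair, the controls, was 28.8.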

Additional observations from a re-analysis of the deposited data

How the results depend on the processing

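No Polycomb member or other listed gene was called after adjustment under any alternative run (DESeq2, limma-voom, no scaling, no low-count filter, replicate block, each library left out); over all genes DESeq2 called 20 higher and 33 lower, and leaving out 1 library called 0 to 2 higher and 0 to 1 lower. Counts of members at an unadjusted p under 0.05 with 1 library left out are given above. Those of the other listed genes are not given, since some of them count Olig2. That gene passed the low-count filter only through the knockdown libraries. With 1 library left out a group has 1 library, which is assumed to vary like the other group. Without knockdown replicate 2 the log2 fold change turned for Ezh2 (-0.12), Eed (-0.0407), Rnf2 (-0.0051) and the log2 ratio of Ezh2 to Ezh1 (-0.0906). The members' median turned too (-0.0156), in a fit that also tested Ring1. Other named genes that turned there were Kdm2b (-0.42), Rbbp7 (-0.29), Sfmbt1 (-0.0098), Mga (0.0430), Scml2 (0.15), E2f6 (0.35) and Gata4 (0.0685). Over the 4 libraries left out in turn the ranges were -0.12 to 0.53 for Ezh2, -0.04 to 0.40 for Eed, -0.0051 to 0.23 for Rnf2, -0.16 to 0.12 for Pcgf6, -0.02 to 0.15 for the median and -0.09 to 0.72 for the ratio; they were 0.20 to 0.48 for Jarid2, 0.13 to 0.21 for Suz12, 0.08 to 0.13 for Bmi1, 0.07 to 0.18 for Aebp2 and -0.19 to -0.03 for Ezh1, none of which turned. Pcgf6 turned without knockdown replicate 1 (0.12), as did Yy1 (-0.0665), Bap1 (0.12) and Sycp3 (-0.42). Of the other named genes, ranges with a turn were -0.33 to 0.12 for Bap1, -0.13 to 0.0148 for Cbx2, -1.99 to 0.35 for E2f6, -0.42 to 0.51 for Kdm2b, -0.27 to 0.04 for Mga, -0.29 to 0.40 for Rbbp7, -0.30 to 0.15 for Scml2, -0.0098 to 0.10 for Sfmbt1, -0.07 to 0.70 for Yy1, -0.19 to 0.20 for Gata4 and -0.42 to 0.34 for Sycp3. Gata4, at -0.0033, was 0.0095 with DESeq2, 0.0027 with limma-voom, 0.0082 with the replicate block and 0.0081 with crossed numbers; Sycp3, at 0.0027, was -0.0288 with limma-voom, -0.0236 without scaling, -0.0358 with the replicate block and -0.0359 with crossed numbers. The cause of these turns was not tested. The labels give both groups replicate numbers 1 and 2 without saying that a number marks a shared source. Deviations of same-numbered libraries correlated at -0.09 over all genes tested and -0.21 among genes averaging 10 CPM or more, across genes, so a crossed block was added after seeing the data. The replicate block called 0 genes, with 479 at an unadjusted p under 0.05 against 984 without it, and the crossed block called 0, with 747.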
